A study of Mus musculus with 2 samples.

Results

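The genes described here are 7 globin genes and *Alas2* of the mouse, 8 of the 32285 genes in the deposited matrices, chosen by symbol and not by their counts. They were measured by single cell RNA sequencing (scRNA-seq) of the dorsal telencephalon, the part of the forebrain that forms the cortex, at embryonic day 14.5. Both libraries, called replicates 1 and 3 after their labels, came from embryos labelled EoMltt3 E14.5 WT, which are control animals of an Eomes-Cre mouse line, and the study's methods give the strain as C57BL/6J. The labels do not say whether a library holds 1 embryo or several, and both libraries form 1 group, so that comparisons were made between cell classes. The study used these libraries to predict signals between interneurons and progenitor cells of the cortex, and the blood cells carried along in the tissue were not its subject.

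Haemoglobin joins alpha-like and beta-like globin chains, each holding a haem group that binds oxygen. The genes of each kind lie side by side on 1 chromosome, embryonic genes first and adult genes after them. The first red cells of the embryo, called primitive, come from the yolk sac and use *Hba-x* (zeta globin), *Hbb-bh1* and *Hbb-y* (epsilon globin). The later red cells, called definitive, come from the fetal liver and use *Hba-a1*, *Hba-a2*, *Hbb-bs* and *Hbb-bt*, and the passage from one set to the other is known as globin switching. *Alas2* makes the enzyme of the first step of haem synthesis in erythroid cells. At the stage examined both kinds of red cell are known to circulate, and they reach the brain through its vessels.

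In the RefSeq annotation of GRCm38.p6, which is the mm10 build named in the submitters' processing notes, the alpha-like genes lie on chromosome 11 in the order *Hba-x* (chr11:32276600-32278116), *Hba-a1* (chr11:32283672-32284486) and *Hba-a2* (chr11:32296492-32297310). The beta-like genes lie on the minus strand of chromosome 7 in the order *Hbb-y* (chr7:103851754-103853207), *Hbb-bh1* (chr7:103841638-103843162), *Hbb-bs* (chr7:103826523-103827928) and *Hbb-bt* (chr7:103812524-103813923). *Alas2* (chrX:150547417-150570622) lies within the span given for *Apex2* (chrX:150426974-150588206), a DNA repair gene on the other strand. The 150 bases before the start of 7 of the 8 genes are shown here from RefSeq, since they let the embryonic and adult genes of each chromosome be set side by side. Each is written 5′ to 3′ along its gene, with capitals for any of 4 motifs known from erythroid promoters, on either strand. The motif CACCC is bound by KLF factors, the motif CCAAT by NF-Y, the motif GATAA is the core of GATA sites, and the motif ATAAA is part of many TATA boxes.
*Hba-x*, chr11:32276450-32276599 (plus strand): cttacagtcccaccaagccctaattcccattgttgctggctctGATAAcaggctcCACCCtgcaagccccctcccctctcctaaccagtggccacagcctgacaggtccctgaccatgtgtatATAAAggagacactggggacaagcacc
*Hba-a1*, chr11:32283522-32283671 (plus strand): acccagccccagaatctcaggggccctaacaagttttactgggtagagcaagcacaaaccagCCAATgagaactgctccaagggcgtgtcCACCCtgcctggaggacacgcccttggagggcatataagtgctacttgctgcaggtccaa
*Hba-a2*, chr11:32296342-32296491 (plus strand): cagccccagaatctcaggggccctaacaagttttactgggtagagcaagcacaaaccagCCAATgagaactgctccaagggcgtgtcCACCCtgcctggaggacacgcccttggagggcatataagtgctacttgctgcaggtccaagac
*Hbb-y*, chr7:103853208-103853357 (minus strand): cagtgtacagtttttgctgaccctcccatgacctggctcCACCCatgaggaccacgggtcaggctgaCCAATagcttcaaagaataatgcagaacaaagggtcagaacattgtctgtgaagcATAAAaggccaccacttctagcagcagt
*Hbb-bs*, chr7:103827929-103828078 (minus strand): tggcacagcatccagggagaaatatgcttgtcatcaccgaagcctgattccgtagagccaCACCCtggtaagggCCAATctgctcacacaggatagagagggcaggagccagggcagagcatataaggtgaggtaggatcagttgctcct
*Hbb-bt*, chr7:103813924-103814073 (minus strand): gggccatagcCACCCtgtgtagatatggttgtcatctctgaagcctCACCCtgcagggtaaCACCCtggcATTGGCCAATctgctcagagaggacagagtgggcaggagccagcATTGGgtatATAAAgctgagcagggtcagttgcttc
*Alas2*, chrX:150547267-150547416 (plus strand): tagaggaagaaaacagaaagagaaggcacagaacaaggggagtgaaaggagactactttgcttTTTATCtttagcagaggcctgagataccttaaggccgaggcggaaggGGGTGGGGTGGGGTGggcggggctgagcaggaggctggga
The motif CACCC was found in 7 of the 7 windows, against 37.4% of 32851 RefSeq promoter windows of the same length. The CCAAT motif was found in 5 of 7 (24.5% of all windows), the ATAAA motif in 4 of 7 (24.1%), and the GATAA motif in 2 of 7 (13.3%), those of *Hba-x* and *Alas2*. Other forms of the TATA box were not searched, so a window without ATAAA is not shown to lack one. The windows of *Hba-a1*, *Hba-a2* and *Hbb-bs* hold catataag, which is left unmarked. In *Alas2* the match of the GATAA motif overlaps that of the ATAAA motif, which lies on the other strand 82 bases before the start. The windows of *Hba-a1* and *Hba-a2* shared an unbroken run of 147 of 150 bases. Windows of *Hbb-bs* and *Hbb-bt* shared at most 14 bases in a row, those of *Hba-a1* and *Hba-x* 10, those of *Hbb-bt* and *Hbb-y* 8, and those of *Hbb-bs* and *Hbb-y* 6.

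The matrices hold unique molecular identifiers (UMIs), each marking 1 captured RNA molecule. Since a 3′ library counts transcript ends, levels were not divided by gene length. Replicate 1 held 6163 barcodes and 64182006 UMIs, and replicate 3 held 8870 barcodes and 93295807 UMIs, with medians of 9802 and 9754 UMIs per barcode and 23 barcode sequences in common. Filters on UMIs, mitochondrial share and doublets left 5184 and 6952 cells, of which 4488 and 5577 fell into 4 neural classes named from markers: projection neuron-like, RGC-like (radial glia), IPC-like (intermediate progenitors) and GABAergic interneuron-like. The 7 globin genes took 0.548% of all UMIs in replicate 1 and 0.650% in replicate 3. Barcodes fell into those with few and those with many globin UMIs. Globins made up under 5% of the UMIs in 14745 barcodes, 5 to 20% in 23, 20 to 50% in 10, and at least 50% in 255. The last are called globin-rich, and 165 of them held over 80% globin UMIs. Values just inside the limit were 51.8, 52.2 and 52.7%, and values just outside were 37.3, 33.8 and 32.7%. Globin-rich barcodes made up 1.46% of the barcodes of replicate 1 (90) and 1.86% of those of replicate 3 (165).

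Clustering without the 8 genes and without the listed pathway genes gave 1 erythroid-like cluster, which took up 95 of the 255 globin-rich barcodes. A further 81 lay in a cluster of low RNA content that was left without a name, 75 held under 1500 UMIs, 3 were in clusters of neural names and 1 was removed by another filter. The erythroid-like class held 37 cells in replicate 1 and 58 in replicate 3, with medians of 6548 and 7347 UMIs. Of 12 fixed erythroid markers, 11 in replicate 1 and 12 in replicate 3 were higher there than in the neural classes, and *Rhag* was at 0 in replicate 1. The class was named from these same markers, so their levels are no separate support for the name.

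Adult globins made up nearly all RNA of the erythroid-like cells. The 7 globin genes took 89.4% ± 0.680 (SD, n = 2 libraries) of their UMIs, with 89.8% in replicate 1 and 88.9% in replicate 3. Single cells ranged from 81.7 to 93.0% (median 90.3) and from 68.4 to 93.4% (median 89.3). *Hbb-bs* stood highest, at 416214 and 417042 CPM (UMIs of the gene for every 1000000 UMIs of the class) in replicates 1 and 3, a mean of 2738 and 2952 UMIs per cell. *Hba-a1* followed with 311317 and 289126 CPM, and *Hbb-bt* with 164191 and 174998 CPM. *Hba-a2* was far lower, at 6698 and 7406 CPM. The order of these 4 genes was the same in both libraries, and no 2 of them overlapped.

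Embryonic globins were at or near 0 in the same cells. *Hbb-y* stood at 32.9 and 34.1 CPM, *Hba-x* at 0 and 7.31 CPM, and *Hbb-bh1* at 0 and 226 CPM. The 226 CPM of *Hbb-bh1* came wholly from 1 cell of replicate 3 with 5406 UMIs, which held 93 *Hbb-bh1* UMIs beside 1508 of *Hbb-bs* and 794 of *Hbb-bt*. This cell held 7 of the 12 erythroid markers and 7 *Alas2* UMIs, and no UMI of *Hbb-y* or *Hba-x*. It was singled out after its values were seen. *Alas2* stood at 1368 and 1340 CPM (9.48 UMIs per cell in replicate 3) and had a UMI in all 37 cells of replicate 1.

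Among globin-rich barcodes, a high share of embryonic beta-like globin was found in a small set outside the erythroid-like cluster. That cluster held 95 of all 255 globin-rich barcodes. In replicates 1 and 3, globin-rich barcodes held 75.1 and 85.2% of all *Hbb-y* UMIs and 70.5 and 71.1% of all *Hba-x* UMIs. For each of the 255 barcodes the share of *Hbb-y* and *Hbb-bh1* among beta-like UMIs was taken. It was 0 in 205 barcodes, above 0 and up to 1% in 32, 3.88% in 1, and above 90% in 17, and no barcode lay between 10 and 90%. This gap and the number of barcodes on either side depend on the limit of 50% globin UMIs, since 3 of the 10 barcodes at 20 to 50% globin had shares of 88.7, 78.3 and 88.7%, among them the last 2 of those named as just outside the limit. The fewest beta-like UMIs in a globin-rich barcode were 77. The 17 barcodes are called embryonic-type and the other 238 adult-type. They were 4 of 90 in replicate 1 (4.44%, 95% Wilson interval 1.74 to 10.9%) and 13 of 165 in replicate 3 (7.88%, 4.66 to 13.0%), so the intervals overlapped. *Hba-x*, which the split did not use, separated the same barcodes. Its share of alpha-like UMIs was at least 21.1% in each embryonic-type barcode and at most 0.685% in each adult-type barcode. Since the types were cut from these counts, the values that follow for them are descriptions with no test.

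**Figure D1:**
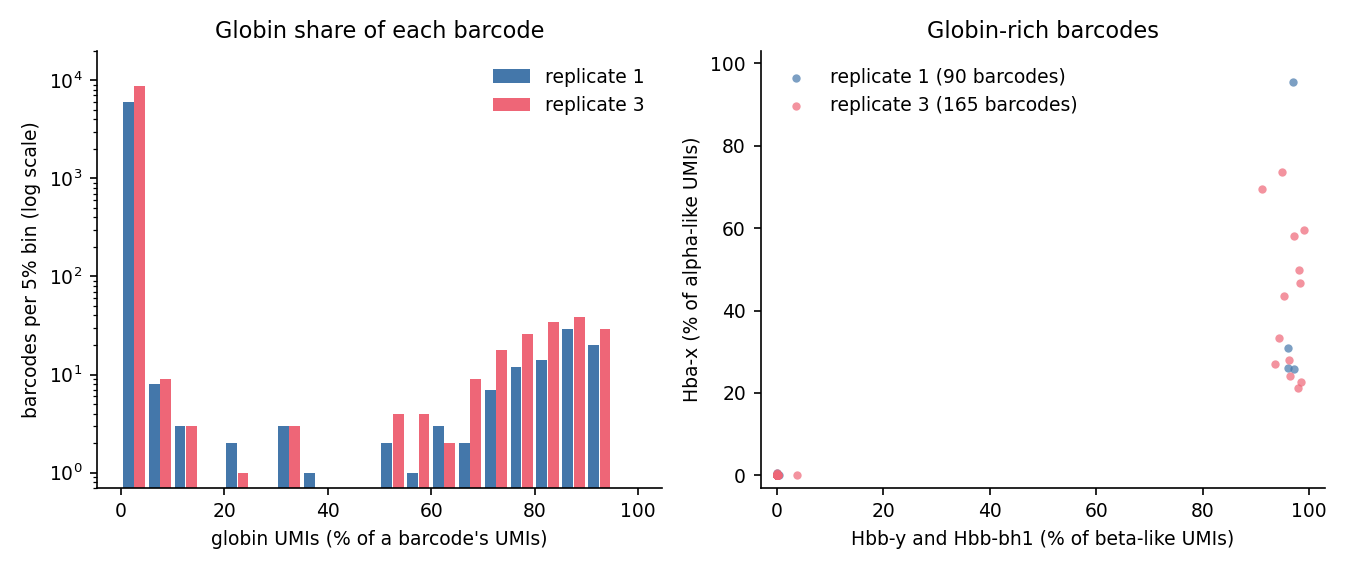
Left, number of barcodes (log axis) against the globin share of their UMIs in bins of 5%, for both libraries. Right, for each of the 255 globin-rich barcodes, the share of *Hbb-y* and *Hbb-bh1* in beta-like UMIs against the share of *Hba-x* in alpha-like UMIs, in percent: 17 barcodes lie above 90% on the beta-like axis, and the other 238 lie at or below 3.88%.

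The 4 embryonic-type barcodes of replicate 1 held 97, 646, 392 and 995 *Hbb-y* UMIs, in that order of barcodes. They held 66, 45, 80 and 672 UMIs of *Hba-x* and 144, 129, 224 and 33 UMIs of *Hba-a1*. *Hbb-bs* gave 2, 10, 13 and 14 UMIs, and *Hbb-bt* 2, 9, 3 and 17. The barcode with the most *Hbb-y* thus had the most *Hba-x* and the fewest *Hba-a1* UMIs, with 95.3% of its alpha-like UMIs from *Hba-x*, and it alone held *Hbb-bh1* (13 UMIs). In the other 3, *Hba-x* made up 31.0, 25.7 and 26.1% of alpha-like UMIs. In the 13 embryonic-type barcodes of replicate 3, *Hbb-y* ran from 72 to 2400 UMIs (median 500), *Hba-x* from 57 to 575 (median 112) and *Hba-a1* from 40 to 623 (median 219). *Hbb-bs* ran from 0 to 45 UMIs (median 7) and *Hbb-bt* from 1 to 71 (median 6). The beta-like genes were therefore nearly all embryonic in each of the 17 barcodes, while the alpha-like genes were mixed, with *Hba-x* shares of 21.1 to 73.6% (median 43.6) in replicate 3.

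Summed over barcodes, *Hbb-y* and *Hbb-bh1* made up 96.8% of beta-like UMIs of the embryonic-type in both libraries (intervals 96.0 to 97.5% and 96.5 to 97.2%). *Hba-x* made up 61.7% (59.1 to 64.2%) of alpha-like UMIs in replicate 1 and 41.6% (40.3 to 42.8%) in replicate 3, and intervals cover counting error only. In replicate 1 this sum is weighted by 1 barcode that held 672 of the 863 *Hba-x* UMIs. *Hbb-y* alone gave 59.0 and 62.1% of globin UMIs. *Hbb-bh1*, the other embryonic beta-like gene, gave 13 and 8 UMIs in all, in 1 and 4 barcodes. The share of alpha-like genes in globin UMIs was 38.7 and 35.8% in the embryonic-type and 35.4 and 32.5% in the adult-type.

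**Figure D2:**
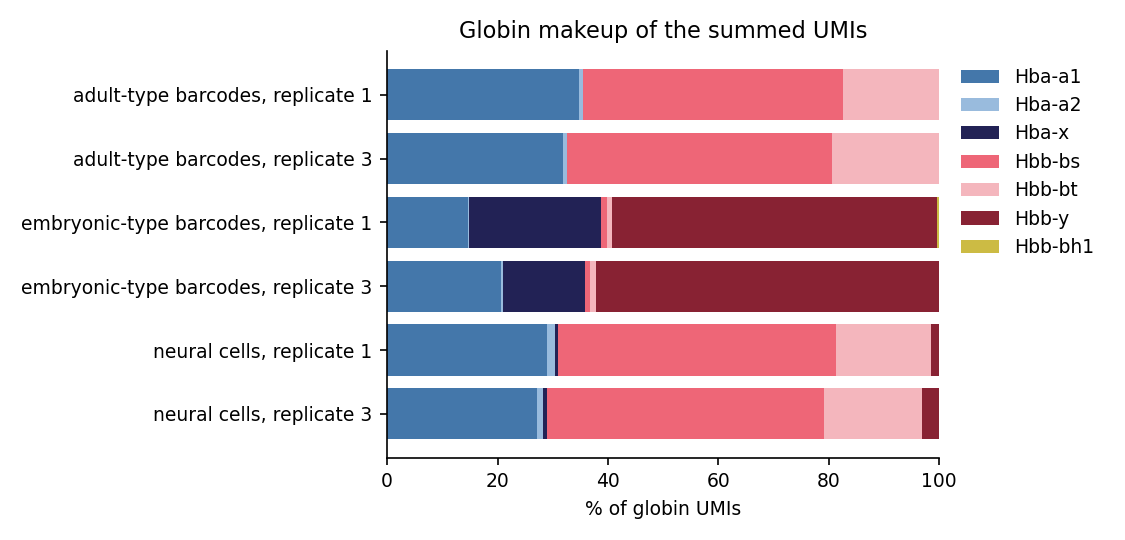
Stacked bars give the share of each globin gene in the summed globin UMIs, in percent, for adult-type barcodes, embryonic-type barcodes and neural cells of each library. *Hbb-y* takes 59.0 and 62.1% in the embryonic-type bars, and *Hbb-bs* the largest share in the adult-type bars.

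Adult-type barcodes held traces of embryonic globin at most. The 86 of replicate 1 held 12 *Hbb-y* UMIs in 4 barcodes, 1 *Hba-x* UMI and no *Hbb-bh1* UMI, among 308147 globin UMIs. The 152 of replicate 3 held 32 *Hbb-y* UMIs in 26 barcodes, 6 *Hba-x* UMIs in 6 and 95 *Hbb-bh1* UMIs in 3, among 517613 globin UMIs. The embryonic share of beta-like UMIs was 0.00603% (0.00345 to 0.0105%) and 0.0364% (0.0306 to 0.0433%). In replicate 3, 93 of these 127 embryonic UMIs lay in the single cell with *Hbb-bh1* described above.

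Embryonic-type barcodes held fewer UMIs, and the listed erythroid genes stood lower in them in some cases and not in others. Their medians were 1130 and 1447 UMIs, against 3652 and 2509 in the adult-type. Below 1500 UMIs lay 3 of 4 (75.0%) and 8 of 13 (61.5%) of them, against 21 of 86 (24.4%) and 43 of 152 (28.3%) of the adult-type. The filter and the doublet step thus left 1 and 5 embryonic-type barcodes, all in the unnamed cluster of low RNA content. Non-globin UMIs were closer, with medians of 313 and 382 per embryonic-type barcode and 408 and 398.5 per adult-type barcode. *Alas2* had a UMI in 0 of 4 and 1 of 13 embryonic-type barcodes, and in 64 of 86 and 119 of 152 of the adult-type. *Fech*, which puts iron into haem, and *Slc25a37*, which carries iron into mitochondria, had 0 UMIs in the embryonic-type of both libraries, against 121 and 224 UMIs of *Fech* and 214 and 376 of *Slc25a37* in the adult-type. *Gpx1*, a peroxidase of red cells, had 0 and 2 UMIs against 739 and 1316. Summed non-globin UMIs behind these counts were 1332 and 5575 in the embryonic-type and 50975 and 88297 in the adult-type. Ferritin genes did not share this pattern. *Fth1* gave 44 and 144 UMIs in the embryonic-type, or 33033 and 25830 for every 1000000 non-globin UMIs, against 23502 and 24044 in the adult-type. *Ftl1*, the light chain, stood at 11261 and 17040 against 39804 and 37408 on the same scale. *Bnip3l*, which serves the removal of mitochondria from red cells, stood at 5255 and 1435 against 3335 and 3081, from 7 and 8 UMIs. *Hmox1*, which breaks down haem, had 0 and 5 UMIs in the embryonic-type against 2 and 1, and *Tal1*, an erythroid transcription factor, 2 and 0 against 0 and 4. The median count of the 12 erythroid markers with a UMI was 0 in embryonic-type and 2 in adult-type barcodes.

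Within the adult-type, the mix of the adult genes varied with the RNA content of the barcode. *Hbb-bt*, the minor adult beta-like gene, made up 26.9% (26.7 to 27.1%) of adult beta-like UMIs in replicate 1 and 28.6% (28.5 to 28.8%) in replicate 3. By barcode its share ran from 2.29 to 34.6% and from 3.85 to 38.8%. In barcodes under 1500 UMIs it was 19.3 and 21.4% of the summed UMIs, at 1500 to 3000 UMIs 23.2 and 27.0%, at 3000 to 6000 UMIs 26.2 and 28.0%, and at 6000 UMIs and over 28.8 and 30.1%. The share rose from bin to bin in both libraries, over 21, 18, 23 and 24 barcodes in replicate 1 and 43, 47, 26 and 36 in replicate 3. Spearman's rho with the UMIs of the barcode was 0.58 over 86 barcodes and 0.51 over 152. These points share a library and both axes share the UMIs of the barcode, so that the values are descriptions. *Hba-a2* behaved alike, with 0.941, 1.36, 1.42 and 2.38% of adult alpha-like UMIs in the same bins of replicate 1 and 1.23, 1.69, 2.03 and 2.55% in replicate 3. The globin share of all UMIs also went with the UMIs of the barcode (rho 0.70 and 0.76), and the part of depth in these shares was not tested.

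**Figure D3:**
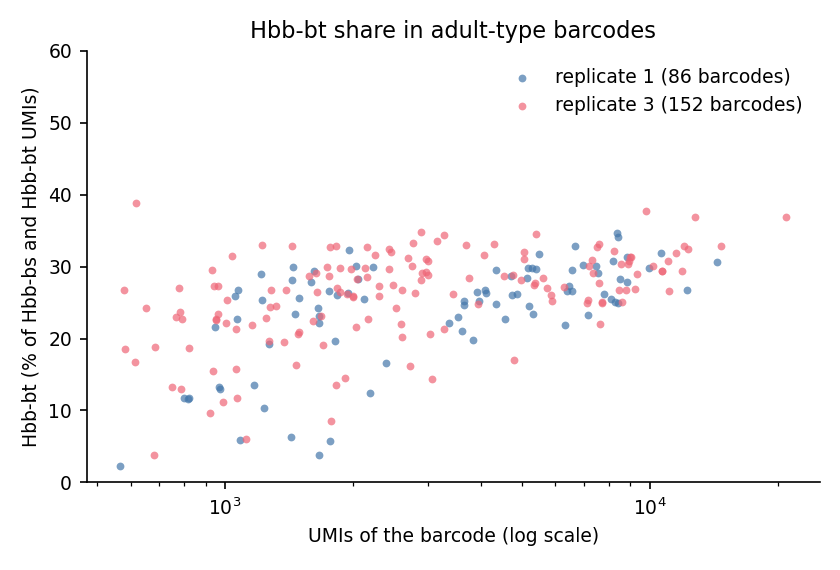
Share of *Hbb-bt* in adult beta-like UMIs (percent) against the UMIs of the barcode (log axis), 1 point per adult-type barcode, for the 86 barcodes of replicate 1 and the 152 of replicate 3. Points lie lower and more widely spread at few UMIs than at many.

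The split between near-identical copies is uncertain. In the last 400 bases of the transcript, where 3′ reads fall, 63.7% of the 90-base windows of *Hba-a1* were also in *Hba-a2* and 71.1% of those of *Hba-a2* in *Hba-a1*. For *Hbb-bs* and *Hbb-bt* the share was 48.2% each way, and for *Hbb-y* and *Hbb-bh1* it was 0 of 311 windows. A read in a shared stretch cannot be given to 1 gene, so levels of *Hba-a2* beside *Hba-a1*, and of *Hbb-bt* beside *Hbb-bs*, depend on the counting. Between *Hba-x* and the adult alpha-like genes, and between *Hbb-y* or *Hbb-bh1* and the adult beta-like genes, 0 of 311 windows were shared either way.

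Sums of UMIs per class and library were compared by the quasi-likelihood test of edgeR (p adjusted after Benjamini-Hochberg), to set the members against all genes. Of the 8 genes, 7 passed the filter on low counts in the fit with the erythroid-like class (13971 genes), and *Hbb-bh1* did not. In erythroid-like against projection neuron-like cells, 5 of the 7 were higher, where 3.03% of all genes tested were called higher and 10.1% lower. The log2 differences were 13.90 ± 1.51 (SE) for *Hba-a1* (adjusted p = 1.88e-04), 13.62 ± 1.05 for *Hba-a2* (1.58e-05), 13.71 ± 1.60 for *Hbb-bs* (3.19e-04), 13.91 ± 1.49 for *Hbb-bt* (1.73e-04) and 10.78 ± 0.51 for *Alas2* (4.06e-07). *Hba-x* (2.43 ± 2.43, adjusted p = 0.604 in edgeR) and *Hbb-y* (4.16 ± 1.87, 0.200) did not pass. *Hbb-y* passed where neural cells with over 50 globin UMIs were left out and a replicate block was added (5.02 ± 0.73, edgeR adjusted p = 0.00115), and also against RGC-like cells (adjusted p = 9.46e-04). Both genes passed under a stricter filter on cells (7.93 for *Hba-x* and 9.10 for *Hbb-y*), under which the embryonic share of beta-like UMIs in the erythroid-like class was 0.832% in place of 0.0248%. Against RGC-like cells, where 3.01% of genes were called higher and 8.88% lower, the same 5 genes were called higher. Their log2 differences were 13.24, 12.67, 13.11, 13.32 and 11.54 in the order given, and *Hba-x* (adjusted p = 0.356) and *Hbb-y* (0.126) again did not pass. With so few genes making up a class, the scaling sets the zero of these values. The median difference of all genes was -3.41 and -3.52, and it was -4.51 and -4.69 with library sizes alone, where the 4 adult globins stood 10.51 to 10.81 above projection neuron-like cells and *Alas2* 7.69. The class was found in these same cells, although without the 8 genes, so the p-values measure the difference against the spread between libraries and are not an independent test of erythroid identity.

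The pathway genes around the globins followed 5 lists. Of all genes tested against projection neuron-like cells, 3.03% were called higher and 10.1% lower. The genes of haem synthesis were mostly higher in erythroid-like than in projection neuron-like cells, with 8 of 11 called higher, 0 lower and a median log2 difference of 4.22 against -3.41 for all genes. They include *Fech* (7.73), *Urod* (5.55) and *Cpox* (5.01), enzymes of later steps, and *Fam210b* (6.11), a mitochondrial protein. *Alas1*, the form of the first enzyme found in all tissues, had a difference of 0.14 and did not pass. Of the genes for globin handling and red cell redox, 8 of 8 tested were called higher (median 4.44), among them *Gpx1* (8.41) and *Txnrd2* (6.53), which reduce peroxides and thioredoxin. Of iron uptake and haem turnover, 4 of 8 were higher and 0 lower (median 3.16), with *Slc25a37* at 12.31 and the ferritin heavy chain *Fth1* at 5.34. Of 3 other globins tested, the theta globins *Hbq1a* (9.57) and *Hbq1b* (9.29) were higher.

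The list of globin switch and erythroid transcription was divided. Of 11 genes tested, 4 were called higher and 1 lower, where 3.03% of all genes were called higher and 10.1% lower. The median was -1.29, against -3.41 for all genes. *Klf1*, the factor that activates adult beta globin (6.98), *Lmo2* (6.01) and *Zfpm1* (4.61), parts of GATA1 complexes, were called higher, from few UMIs. All adult-type barcodes, which include the erythroid-like cells, held 1 and 5 UMIs of *Klf1* in replicates 1 and 3. They held 10 and 23 of *Lmo2* and 1 and 2 of *Zfpm1*. *Bcl11a*, which silences embryonic beta-like genes in definitive cells and is also a gene of cortical neurons, was lower (-2.71). This value lay above the median of all genes (-3.41). *Myb* (-2.77), *Sox6* (1.54), *Lin28b* (-6.55) and *Zbtb7a* (-6.25), all known for parts in switching, did not pass, and *Gata1* is among 5 listed genes that did not reach the filter. Against RGC-like cells the counts of genes higher were 8 of 11, 8 of 8, 3 of 8, 2 of 3 and 3 of 11, with 1 lower, of the last list. Of all genes, 3.01% were called higher and 8.88% lower there. With library sizes alone the counts against projection neuron-like cells were 6 higher and 2 lower for haem synthesis, 5 and 1 for handling and redox, 3 and 3 for iron, 2 and 1 for other globins, and 2 and 6 for the switch list. Of all 13971 genes, 164 were then called higher and 9903 lower. *Eif2ak1*, *Xpo7* and *Klf3* were called higher although their CPM lay below that of projection neuron-like cells in both libraries.

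Globin UMIs were found in cells of all kinds, as a background of few molecules per barcode. A small number of neural cells stood apart. With a limit of 50 globin UMIs, 15 neural cells of replicate 1 and 7 of replicate 3 were above it and held 81.7 and 46.1% of all globin UMIs of the neural classes. In them adult globins again made up nearly all globin UMIs, with 2 exceptions. In 1 projection neuron-like cell of replicate 1 with 14452 UMIs, 8.01% were globin, with 517 *Hbb-y* and 269 *Hba-x* UMIs and an embryonic share of 90.5% of beta-like UMIs. In 1 projection neuron-like cell of replicate 3, 68 *Hba-x* UMIs stood beside 0 of *Hbb-y* and 9 of *Hba-a1*. By class, 5 and 1 of the cells above the limit were GABAergic interneuron-like, 2 and 2 RGC-like and 8 and 4 projection neuron-like. Whether these barcodes hold a red cell beside a neural cell was not tested.

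All other neural cells held a mean of 1.47 globin UMIs in replicate 1 and 5.20 in replicate 3, with maxima of 8 and 26. The mean was 3.54 times higher in replicate 3, while the share of globin-rich barcodes was 1.27 times higher. No globin UMI was found in 25.5 and 1.63% of these cells, where a Poisson distribution of the same mean gives 23.0 and 0.554%. The level was nearly flat over the RNA content of the cell in replicate 1 and rose with it in replicate 3. In 4 groups of equal size, from the cells with the fewest to those with the most UMIs, it was 1.45, 1.44, 1.49 and 1.49 per cell in replicate 1 and 4.45, 5.04, 5.45 and 5.85 in replicate 3. Barcodes removed for having under 1500 UMIs held 1.52 and 5.31.

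Over the 10 classes outside the erythroid-like one, globin UMIs per cell ran from 0.977 to 1.82 in replicate 1 and from 4.89 to 5.67 in replicate 3, a range of 1.87-fold and 1.16-fold. In CPM the range was wider, from 60.6 to 256 CPM (4.22-fold) and from 296 to 1032 CPM (3.49-fold). The GABAergic interneuron-like class had the highest CPM in each library, with medians of 4732 and 4066 UMIs per cell, against 11212 and 10733 in projection neuron-like cells. Over both libraries each class overlapped the next in the order of the means. Since replicate 3 lay above replicate 1 in each class, this overlap cannot decide an order within a library.

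**Figure D4:**
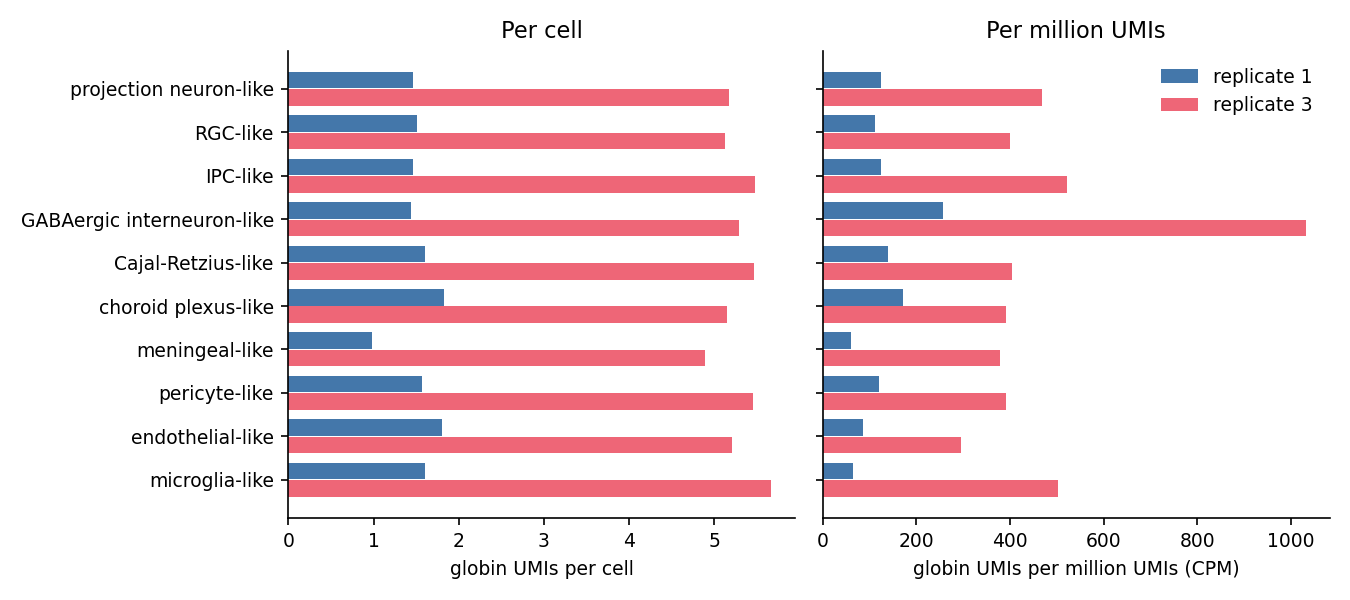
Globin UMIs per cell (left) and globin CPM (right) in the 10 classes outside the erythroid-like one, 1 bar per library, for cells with at most 50 globin UMIs. Per cell the classes lie within 1.87-fold of each other in replicate 1 and within 1.16-fold in replicate 3, and replicate 3 lies above replicate 1 in each class.

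The embryonic share was higher in the background than in the globin-rich barcodes of either library, but the latter rests on few barcodes. In neural cells with at most 50 globin UMIs, the embryonic share of beta-like UMIs was 2.25% (1.85 to 2.72%) in replicate 1 and 4.30% (4.03 to 4.58%) in replicate 3. In the globin-rich barcodes of the same libraries, summed over both types, it was 1.07 and 2.81%, set by 4 and 13 embryonic-type barcodes, of which 1 gave 995 of the 2130 *Hbb-y* UMIs in replicate 1. The intervals of the UMI shares leave out this spread between barcodes, and the difference was not tested. The share of *Hba-x* in alpha-like UMIs was 1.53 and 2.28% in the background and 0.782 and 1.38% in the globin-rich barcodes. The share of *Hba-a2* in adult alpha-like UMIs was 4.96 and 4.05% against 1.92 and 2.23%.

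Tests over the class sums of the 4 neural classes (14811 genes) gave different calls with and without the cells above 50 globin UMIs. With all cells, 4 of the 6 globin genes tested were higher in the GABAergic interneuron-like class than in projection neurons, where 35.5% of all genes were called. Their log2 differences were 3.58 ± 0.79 for *Hba-a1* (edgeR, adjusted p = 0.0102), 3.64 ± 0.75 for *Hba-a2* (0.00776), 3.15 ± 0.81 for *Hbb-bs* (0.0186) and 3.68 ± 0.86 for *Hbb-bt* (0.0127). In RGC-like cells, where 62.6% of genes were called, *Hba-x* was lower (-2.31 ± 0.79, edgeR adjusted p = 0.0320) and rested on the 2 projection neuron-like cells with many *Hba-x* UMIs. In IPC-like cells, where 50.9% of genes were called, 0 of 6 globins passed (edgeR, adjusted p from 0.144 to 0.902). Without the cells above the limit, 0 of 6 globins passed in any of the 3 comparisons (lowest adjusted p in edgeR 0.636, 0.770 and 0.425), where 62.6, 50.8 and 35.4% of genes were called. That fit had no replicate block, which takes the difference between libraries out of the spread. The SE of *Hba-a1* in RGC-like cells was 0.88 without the block and 0.10 with it. With the block, *Hba-a1*, *Hbb-bs* and *Hbb-bt* were lower in RGC-like cells on the CPM scale. The same 3 genes and *Hbb-y* were higher in GABAergic interneuron-like cells. Scaled per cell, with or without the block, 0 of 6 globins passed in any of the 3.

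*Alas2* did not follow the globin background. Neural cells with at most 50 globin UMIs held 275 *Alas2* UMIs in replicate 1 and 328 in replicate 3, which is 41.9 and 11.3 for every 1000 globin UMIs. In the globin-rich barcodes the ratio was 1.40 and 1.46, so the neural ratio was 29.9 and 7.77 times higher. At the ratio of the globin-rich barcodes, the neural cells would hold 9.18 and 42.2 *Alas2* UMIs. While globin UMIs per neural cell were 3.54 times higher in replicate 3, *Alas2* UMIs per neural cell were 0.958 times those of replicate 1. *Alas2* had a UMI in 254 (5.68%) and 308 (5.53%) of these cells, with at most 3 per cell. Cells with an *Alas2* UMI held a mean of 1.56 and 5.47 globin UMIs, and cells without one 1.46 and 5.18.

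Among the classes, *Alas2* stood far highest in erythroid-like cells (1354 ± 20.4 CPM, SD, n = 2). For the other classes the values are given without cells of over 50 globin UMIs. Cajal-Retzius-like cells had 22.5 and 6.04 CPM and GABAergic interneuron-like cells 8.82 and 15.7, and the 2 classes overlapped. Projection neuron-like cells had 6.15 and 6.20 CPM, within the range of the Cajal-Retzius-like class. IPC-like cells had 3.58 and 4.66 CPM and RGC-like cells 3.07 and 3.19. The projection neuron-like, IPC-like and RGC-like classes did not overlap each other. With all cells the RGC-like class had 4.80 and 3.71 CPM, which overlapped the IPC-like class, the projection neuron-like class 6.58 and 6.22, and the GABAergic interneuron-like class 11.9 and 37.7, where 1 cell of replicate 3 gave 29 of 49 UMIs. Endothelial-like cells had 1.85 and 2.58 CPM, choroid plexus-like cells 0 and 3.19 and meningeal-like cells 0 and 1.80, and pericyte-like and microglia-like cells were at 0. These values rest on 1 and 2 UMIs in endothelial-like, 0 and 6 in choroid plexus-like and 0 and 3 in meningeal-like cells. That is too few to place these classes in an order. The classes at 0 were small, with 39 and 46 pericyte-like and 5 and 27 microglia-like cells. Within the neural classes, 1 cluster of 31 and 126 cells with a projection neuron name had the highest level, 34.6 and 35.8 CPM, from 4 and 18 UMIs. With the cells above 50 globin UMIs left out, *Alas2* was lower in RGC-like than in projection neuron-like cells (log2 difference -1.17 ± 0.25, edgeR adjusted p = 0.00332), also when scaled per cell (-0.74 ± 0.24, adjusted p = 0.0235). With all cells the difference was -0.83 ± 0.40 and did not pass (adjusted p = 0.106 in edgeR). In IPC-like cells the difference was -0.70 ± 0.28 without those cells (edgeR adjusted p = 0.0658, and 0.0485 with a replicate block). In GABAergic interneuron-like cells it was 1.57 ± 0.44 with all cells (edgeR adjusted p = 0.0251) and 0.67 ± 0.28 without them (0.0953).

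**Figure D5:**
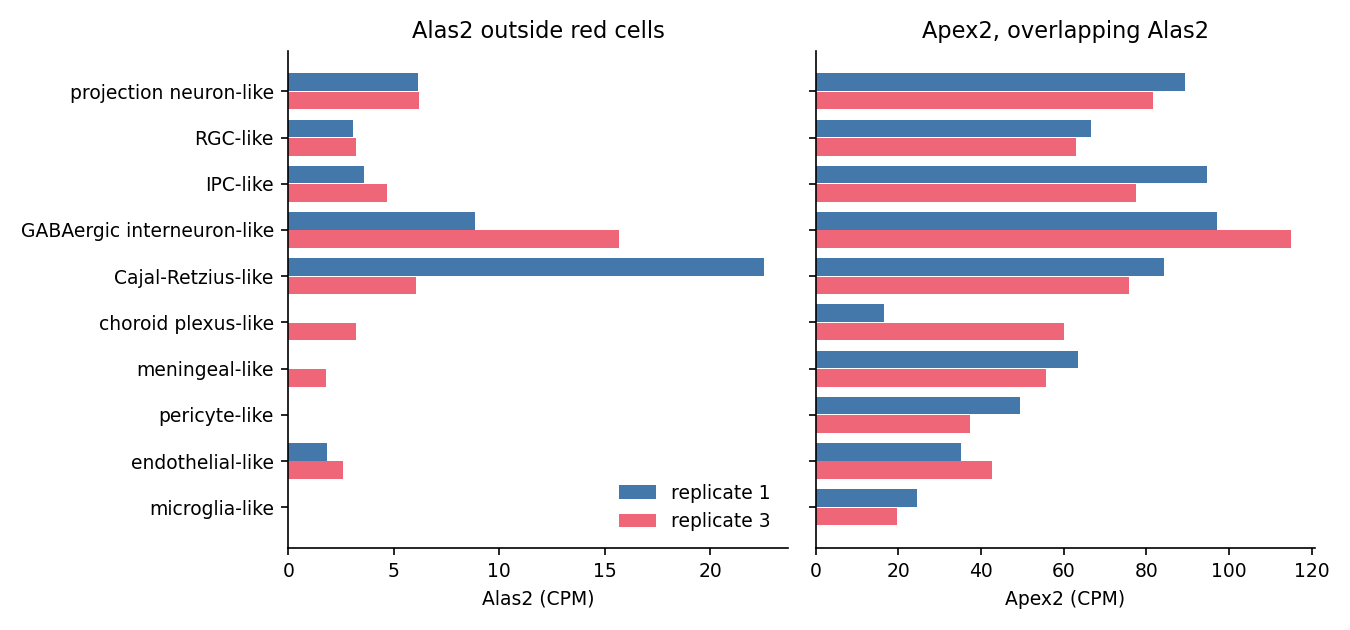
CPM of *Alas2* (left) and of *Apex2* (right) in the 10 classes outside the erythroid-like one, 1 bar per library, for cells with at most 50 globin UMIs. *Alas2* lies at 3.07 to 6.20 CPM in RGC-like, IPC-like and projection neuron-like cells of both libraries, and *Apex2* at 62.9 to 94.6 CPM in the same classes.

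*Apex2* was measured because its annotated span covers *Alas2* on the other strand, and the strand setting of the counting is not given in the sources used here. *Apex2* stood at 89.3 and 81.6 CPM in projection neuron-like, 66.6 and 62.9 in RGC-like, 94.6 and 77.6 in IPC-like and 97.0 and 115 in GABAergic interneuron-like cells, and at 0 in the erythroid-like cells of both libraries. In these cells of at most 50 globin UMIs the RGC-like class was lowest of the 4 for both genes, and with all cells it was not lowest for *Alas2* in replicate 1. The GABAergic interneuron-like class was highest of the 4 for both genes. IPC-like cells lay above projection neuron-like cells for *Apex2* in replicate 1, but below them for *Alas2* in both libraries. Cajal-Retzius-like cells, with *Alas2* at 22.5 and 6.04 CPM, had *Apex2* at 84.3 and 75.9 CPM. The cluster with the highest *Alas2* level had 95.2 and 87.6 CPM of *Apex2*, against 89.3 and 81.6 in the other projection neuron-like cells. The part of reads from *Apex2* in the neural *Alas2* counts was not tested.

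Across the 22 sums of 11 classes and 2 libraries, the 3 genes outside the 8 whose log-scale pattern was most like it included *Slc4a1* (Pearson's r from 0.930 to 0.954) and *Tspo2* (from 0.915 to 0.929) for each of the 4 adult globins. For *Alas2* they included *Fam220a* (0.968) and *Slc4a1* (0.905). *Hbb-y* and *Hba-x* had no gene as close, and *Fn3krp* led for both (0.597 and 0.695). For *Hbb-bh1*, *Cldn13*, *Gm33336* and *Gm38619* were tied (0.965), with the UMIs of *Hbb-bh1* in the erythroid-like class all from 1 cell. The sums of 1 library share their preparation, and these values are descriptions.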

How the data were processed

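Droplet-based 3′ libraries (10x Genomics) of 2 WT samples were analysed. The authors made the deposited UMI counts per gene and barcode with Cell Ranger 7.0.0 on mm10, per the submitters' processing notes, and the annotation, the use of introns and the strand setting are not given in the sources used here. The counts were used as deposited, 1 matrix per sample. The 8 genes, the 5 gene lists and the comparisons were chosen with earlier results of these data known, and so support nothing by having been chosen. The text names all 8 genes, the genes of the 5 lists as examples, and for likeness the 3 genes with the highest Pearson's r on log2(CPM + 1) to each of the 8. Values of some single listed and like genes are not reported here.

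Cells were required to hold 1500 to 60000 UMIs, less than 10% of them mitochondrial, and 710 and 1387 barcodes did not. Scores as in Scrublet (2 simulated doublets per cell, 0.8% per 1000 barcodes) then removed 269 (4.93%) and 531 (7.10%) as doublets. Counts were scaled and log-transformed, and 2000 variable genes without the 8 genes and the listed genes gave 30 components, 15 neighbours and Leiden clusters at resolution 1.0. A class is called "-like" from at least 3 fixed markers, and clusters that did not reach this stayed unnamed. Globin-rich barcodes (at least 50% globin UMIs) were taken before any filter. Shares have 95% Wilson intervals, which cover counting error only.

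UMIs were summed per class and library and compared by the quasi-likelihood test of edgeR, using TMM factors, filterByExpr, a prior count of 2, Benjamini-Hochberg adjustment over all genes tested and a threshold of 0.05. The SE is the absolute log2 difference over the square root of F. The erythroid fit used 10 sums of 5 classes and the neural fit 8 sums of 4 classes. The labels name the libraries as separate samples, and p-values measure the spread between 2 libraries, which may be technical. Sums of 1 library come from the same sample, so the replicate number pairs them, and the correlation of paired deviations over 13971 genes was from 0.00360 to 0.282 in 10 pairs of classes. That correlation covers all genes and not the globins alone. In neural cells with at most 50 globin UMIs, globins were 3.54 times higher in replicate 3, and the block changed calls there. The fit without a block was the main one, with the block as an alternative. The tests were also run on simulated counts, in which each sum was drawn independently and without a difference between libraries. That check does not cover the pairing of sums or the difference between libraries, and its outcome is not reported here. Alternatives covered scaling, filters, doublets, clustering, DESeq2 and leaving out each library, and the split at 50 globin UMIs in neural cells was added after seeing the data. Promoter windows and gene positions are from RefSeq (GRCm38.p6), and transcript ends from GENCODE. The set of promoter windows held no entry for *Hbb-bh1*. Software was R 4.3.3, edgeR 4.0.16, DESeq2 1.42.0, Python 3.11.15, numpy 2.4.6, scipy 1.17.1, pandas 2.3.3, scanpy 1.11.5 and scikit-learn 1.9.0.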

Additional observations from a re-analysis of the deposited data

How the results depend on the processing

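The 4 adult globins and *Alas2* were higher in erythroid-like cells in 100 of 100 values over the alternatives of both comparisons, from 7.69 to 15.79 on the log2 scale, with adjusted p up to 0.0135. All are refits of the same libraries and not separate evidence. In the setting with the 8 genes among the clustering genes, these genes could also help form the class. The shares in the erythroid-like class depended on which barcodes it took in. The embryonic share of beta-like UMIs (0.0248%) was 0.832% with a stricter filter on cells, 0.328% with the 8 genes among the clustering genes, 0.386% in cells with 3 or more erythroid markers and 1.94% over all globin-rich barcodes, and the alpha-like share (0.00123%) was 0.317, 0.0830, 0.0963 and 1.08%. The globin share (89.4%) was 62.9, 84.3, 36.8 and 85.3% in the same order, 87.7% with no filter on cells and 87.8% with predicted doublets kept. By library the 3 values ran from 0.00566 to 0.0440%, from 0 to 0.00246% and from 88.9 to 89.8%. Globin UMIs per neural cell (8.82, and 8.02 to 9.62 by library) fell to 5.36 with the 8 genes among the clustering genes and to 3.33 without cells above 50 globin UMIs. The embryonic beta-like share in neural cells (2.56%, and 2.39 to 2.73% by library) was 2.83% with doublets kept, 4.10% with the 8 genes among the clustering genes, 3.27% without cells above 50 globin UMIs and 3.29% in cells with at most 10.

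The number of genes called in erythroid-like against projection neuron-like cells (1832: 423 higher, 1409 lower) was 10067 with library sizes alone (164 and 9903) and 3401 with the stricter filter, and DESeq2 gave 891 higher and 711 lower. Against RGC-like cells (1661: 421 and 1240) it was 10452 with library sizes alone (154 and 10298) and 1104 with the 8 genes among the clustering genes. In GABAergic interneuron-like cells (5252) it was 10336 scaled per cell, 10323 without cells above 50 globin UMIs, and 10725 with a replicate block added. With library sizes alone, 5487 genes were higher and 3892 lower in RGC-like cells, in place of 4239 and 5039, and scaled per cell 6542 and 2938.

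*Hba-x* reversed against projection neuron-like cells with library sizes alone (-0.64) and, with no test, without replicate 3 (-5.61 against 3.75 without replicate 1, and -1.26 against 4.93 in the comparison with RGC-like cells), and in RGC-like cells with doublets kept (0.95). In GABAergic interneuron-like cells without cells above 50 globin UMIs, scaling per cell gave -0.20 for *Alas2*, -0.81 for *Hba-a2*, -0.069 for *Hbb-bs* and -0.082 for *Hbb-bt*, and with the block -0.21, -0.64, -0.021 and -0.024. With all cells, the 4 globin calls in this class were lost with the 8 genes among the clustering genes (*Hba-a1* 0.15, *Hbb-bs* 0.13, *Hbb-bt* 0.11 and *Hba-a2* -0.33, lowest adjusted p in edgeR 0.292) and with doublets kept (2.36 to 2.99). In the fits with all cells the replicate block changed no call among the 8 genes, and it moved the genes called in projection neuron-like comparisons to 1734 for erythroid-like, 9794 for RGC-like, 7971 for IPC-like and 5448 for GABAergic interneuron-like cells. The causes of these shifts were not tested. The planned comparison of erythroid-like cells with an embryonic share of at least 10% against those below, with its alternatives, was not run, since 0 cells of the class reached 10%. With 2 libraries and 17 embryonic-type barcodes, the number of barcodes limits what can be said of the embryonic genes.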
